A study of Homo sapiens with 32 samples.

Results

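The strongest binding positions of the transcription factors SP1 and YY1 were compared in HEK293T cells. The members were the 10000 summits with the highest score in the SP1 list and the 10000 with the highest score in the YY1 list, on chromosomes 1 to 22 and X. A summit is the 1-bp position of highest signal in a called peak, and its score is a significance on the −log10 scale, of either a p-value or a q-value. The SP1 members were 7.93% of 126181 summits on these chromosomes and the YY1 members 9.38% of 106578. Across the 4 antibodies of the study, the lists held 288727 summits. The members were chosen by these scores alone, so overlaps between the lists are given below as descriptions without a test.

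The study used chromatin immunoprecipitation with sequencing (ChIP-seq), in which crosslinked chromatin is recovered with an antibody and its DNA is sequenced. All 32 samples came from a single clone of HEK293T, an established human embryonic kidney line, in which ZNF143 is fused to a dTAG degron. Through this domain the small molecule dTAGV-1 sends the fusion to degradation. The SP1 antibody had 4 untreated samples and 4 samples given 50 nM dTAGV-1 for 30 minutes, and so did the YY1 antibody. Other samples addressed NRF1, ZNF143 and a mock precipitation. The untreated cells carry the degron too, so that no group has unmodified ZNF143. Per the labels, 1 SP1 list serves treated and untreated samples alike. The labels of the YY1 samples name no list, and which of those samples entered it is not given in the sources used here. No value per sample exists in either list, so neither treatment nor replicates could be compared, and read depth is unknown.

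SP1 is a zinc finger activator that binds GC boxes, short G-rich sequences found in front of many human genes. YY1 is a zinc finger protein that activates or represses depending on the gene, and its consensus holds the letters ATGG. It binds at many promoters close to the start of transcription and also at distal elements. CCAAT boxes, the sites of the factor NF-Y, often lie in the same promoters as GC boxes.

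The sequences below are examples of top summits, picked by hand, and are neither the strongest nor typical. All hold a consensus, whereas the full YY1 consensus lay within 50 bp of only 9.49% of top YY1 summits. The lowest YY1 rank among them is 8418, at PCDHB7. Each sequence was read from hg38 on the strand of the gene, 5′ to 3′. Capitals mark matches on either strand. The GC box was searched as GGGCGG and the site of NF-Y as CCAATNNG. The YY1 consensus was searched as AANATGGCG, and a shorter core of it as ATGGCG. These 4 sites with a top SP1 summit and no top YY1 summit within 500 bp of the gene start carry a GC box, a CCAAT box or both.
HMGCS1, chr5:43313720-43313779, minus strand: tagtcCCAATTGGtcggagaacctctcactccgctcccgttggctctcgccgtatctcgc
SLC26A6, chr3:48635501-48635560, minus strand: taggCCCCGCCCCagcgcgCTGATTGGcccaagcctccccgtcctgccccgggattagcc
RAD51AP2, chr2:17518479-17518538, minus strand: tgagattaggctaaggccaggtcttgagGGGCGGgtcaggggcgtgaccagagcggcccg
SP1, chr12:53379780-53379839, plus strand: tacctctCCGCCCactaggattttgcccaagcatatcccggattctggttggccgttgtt

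The SP1 summit was base 51 of the HMGCS1 sequence, base 38 of that of SLC26A6, base 29 of that of RAD51AP2 and base 50 of that of the SP1 gene itself. In SLC26A6 a GC box of the long form (GGGGCGGGG, here on the other strand) stood beside a CCAAT box.

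The next 5 sites had a top YY1 summit and no top SP1 summit within 500 bp of the gene start, and each holds a full copy of the YY1 consensus. They are shown because the copies differ in strand and in position along the gene.
ZNF484, chr9:92878075-92878134, minus strand: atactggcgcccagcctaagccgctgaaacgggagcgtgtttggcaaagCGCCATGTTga
PCDHB7, chr5:141172511-141172570, plus strand: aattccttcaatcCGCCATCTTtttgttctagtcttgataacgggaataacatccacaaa
NDUFA9, chr12:4649114-4649143, plus strand: attgtgggaaAAGATGGCGgctgccgcaca
UBAP2L, chr1:154220546-154220575, plus strand: ccggcctgaaAACATGGCGgacaggcagga
PLOD3, chr7:101218022-101218051, minus strand: agaaagcttttCGCCATGTTttataggggc

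NDUFA9 and UBAP2L read AANATGGCG in the direction of the gene, in sequence annotated in part as UTR. ZNF484, PCDHB7 and PLOD3 carry the copy on the other strand, upstream of the gene start in ZNF484 and PCDHB7 and in an intron in PLOD3.

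The last 2 sites had top summits of both factors close together. They are shown because each holds a different consensus.
NCDN, chr1:35557653-35557682, plus strand: cccacaagcAAGATGGCGgcaacggcggca
PRR14, chr16:30650651-30650710, plus strand: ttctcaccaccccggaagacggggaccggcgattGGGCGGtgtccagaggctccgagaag

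In PRR14 the YY1 summit was base 8 and the SP1 summit base 38, inside a GC box. In NCDN the YY1 summit was base 19, the base after a sense copy of the YY1 consensus.

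The scores that chose the members reached 17292 for SP1 and 32193 for YY1, with medians of 574 and 315. At rank 10000 the SP1 score was 301.153 on both sides of the threshold, and 11 of the 15 summits tied at that score were taken in file order. The last YY1 summit inside had a score of 151.44 and the next outside 151.423. Scores depend on depth and were compared only within a list. The members lay in 8624 SP1 peaks and 8116 YY1 peaks, so some are neighbouring summits of a single peak. Summits are not replicates, and the intervals below are Wilson 95% intervals that cover counting error only.

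The strongest summits of the lists coincided in part. Of the top SP1 summits, 2949 (29.5%, interval 28.6 to 30.4%) had a top YY1 summit within 100 bp, against 4.62% of all SP1 summits. Of the top YY1 summits, 2947 (29.5%, 28.6 to 30.4%) had a top SP1 summit within 100 bp, against 6.42% of all YY1 summits. These are called shared below, and the remaining 7051 SP1 and 7053 YY1 summits unshared. Both backgrounds include the members themselves.

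Unshared did not mean that the other factor was absent from its list. A further 3890 top SP1 summits (38.9%) had a lower-scoring YY1 summit within 100 bp, whose median rank in the YY1 list was 19117. For 2933 the nearest YY1 summit lay 101 to 500 bp away, and only 228 top SP1 summits (2.28%) had none within 500 bp. Among the top YY1 summits, 2885 (28.9%) had a lower-scoring SP1 summit within 100 bp, 3874 (38.7%) had one 101 to 500 bp away and 294 (2.94%) had none within 500 bp. Of all SP1 summits 40.5% had a YY1 summit of any score within 100 bp, and of all YY1 summits 47.9% had an SP1 summit. In the YY1 list, runs of missing peak numbers marked 44 regions (141 Mb together), and in them lay 51 of the top SP1 summits and 0 of the top YY1 summits.

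Sharing depended on rank. Among SP1 ranks 1 to 500, 63% (58.7 to 67.1%) had a top YY1 summit within 100 bp, and among ranks 5001 to 10000, 20.9% (19.8 to 22%) did. For YY1 the share was 46% (41.7 to 50.4%) at ranks 1 to 500, 22.7% (20.6 to 24.9%) at ranks 1001 to 2500 and 28.7% (27.5 to 30%) at ranks 5001 to 10000. The SP1 share was lower in each lower range of ranks, whereas the YY1 share had its minimum in the middle of the list.

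The factors differed in where their strongest summits lay. A promoter here is the 500 bp to either side of the start of a protein-coding gene in GENCODE 44. At promoters were 3759 top SP1 summits (37.6%, 36.6 to 38.5%) and 5113 top YY1 summits (51.1%, 50.2 to 52.1%). Over whole lists these shares were 9.83% for SP1 and 13.4% for YY1. Further than 10 kb from every such start, called distal here, were 45.1% of top SP1 and 29.0% of top YY1 summits, against 62.7% and 56.6% of all summits. At ranks 1 to 500, 75.8% (71.9 to 79.3%) of YY1 and 31.4% (27.5 to 35.6%) of SP1 summits were at promoters, and 9.80% and 52.0% were distal. At ranks 5001 to 10000 the promoter shares were 41.7% for YY1 and 38.8% for SP1.

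**Figure D1:**
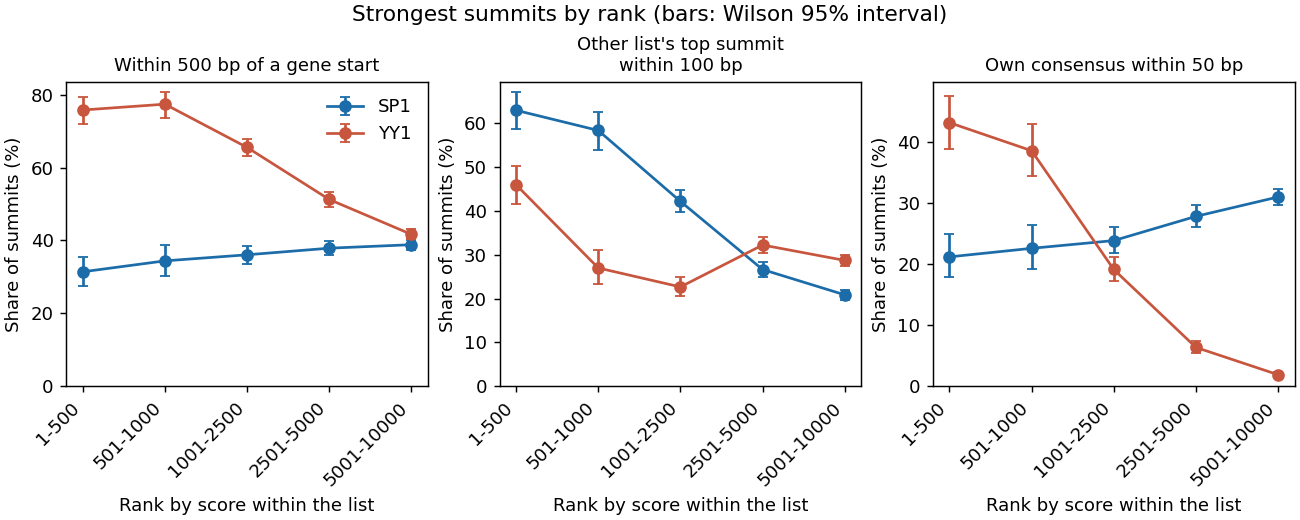
Share of summits (y axis, %) by range of rank within the SP1 list (blue) and the YY1 list (red), for summits at promoters, summits shared with the top of the other list, and summits with the factor's own consensus within 50 bp. Points are shares and bars Wilson 95% intervals. For YY1 the promoter share is 75.8% in the first range and 41.7% in the last, and the own-consensus share 43.2% and 1.88%, while both SP1 shares are higher in the last range of ranks than in the first.

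Among unshared summits, 2440 of 7051 SP1 summits (34.6%) and 3795 of 7053 YY1 summits (53.8%) were at promoters. The odds ratio of SP1 over YY1 was 0.454 (0.425 to 0.486), with a two-sided Fisher exact p of 2.30e-117. This direction rested on what counts as unshared. With only those summits that had no summit of the other list at any score within 100 bp, 60.2% of 3161 SP1 and 56.9% of 4168 YY1 summits were at promoters, and the odds ratio was 1.14 (Fisher exact p = 0.00477).

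Around the gene start, the strongest SP1 summits lay upstream and the strongest YY1 summits downstream. The median offset of the 3759 SP1 promoter summits was -53 bp, with quartiles at -110 and 17 bp, and 70.5% (69.0 to 71.9%) were upstream. The median offset of the 5113 YY1 promoter summits was 57 bp, with quartiles at -53 and 153 bp, and 34.5% (33.2 to 35.8%) were upstream. Medians were -64 bp for unshared SP1 and 79 bp for unshared YY1, and -32 bp and -9 bp for the shared summits of SP1 and YY1. Shared summits lie within 100 bp of each other by definition, which holds their medians close together. SP1 promoter summits with a CCAAT box within 50 bp had a median of -68 bp and 82.7% (79.9 to 85.2%) of them were upstream.

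**Figure D2:**
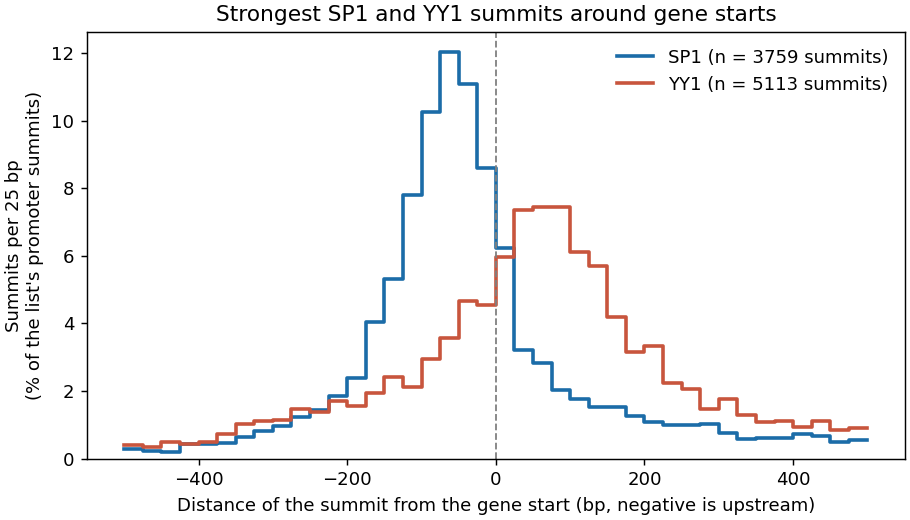
Distance of each top summit at a promoter from the nearest protein-coding gene start (x axis, bp along the gene, negative is upstream) against the share of the list's promoter summits per 25 bp (y axis, %). The SP1 curve (blue, 3759 summits, median -53 bp) stands upstream of the start and the YY1 curve (red, 5113 summits, median 57 bp) downstream.

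The order held within single promoters. In 1306 promoters with a top SP1 and a top YY1 summit within 100 bp of each other, taking the closest pair per promoter, SP1 was upstream of YY1 in 785 and downstream in 513, with 8 pairs at 0 bp. SP1 was thus upstream in 60.5% (57.8 to 63.1%) of 1298 pairs, against 50% in an exact two-sided binomial test (p = 4.38e-14). The median signed distance was 14 bp and the median unsigned distance 41 bp. Counts per 10 bp of distance ranged from 31 to 97 promoters.

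The order varied with the distance between the summits and with their place. SP1 was upstream in 56.0% (50.6 to 61.2%) of 334 pairs 1 to 20 bp apart and in 70.4% (64.0 to 76.1%) of 213 pairs 61 to 80 bp apart, with 62.6% (55.7 to 69.1%) of 198 pairs 81 to 100 bp apart. It was upstream in 73.3% (69.4 to 76.8%) of 539 pairs centred downstream of the gene start, and in 51.4% (47.8 to 54.9%) of 759 pairs centred upstream of it. Promoters with gene starts on both strands, where the gene strand is ambiguous, gave 61.9% (55.9 to 67.5%) of 265 pairs. The differences between these subsets were not tested. Scores of paired summits were almost unrelated across promoters (Spearman's rho -0.03 over 1306 pairs, given as a description).

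The same order appeared without a limit on distance. In 1995 genes with a top summit of each factor within 500 bp, all starts on 1 strand, the strongest SP1 summit was upstream of the strongest YY1 summit in 1339 of 1989 with different positions (67.3%, 65.2 to 69.3%). The median offsets were -51 bp for SP1 and 44 bp for YY1, and the median difference was 49 bp. These genes overlap with the promoters above and are no separate evidence.

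**Figure D3:**
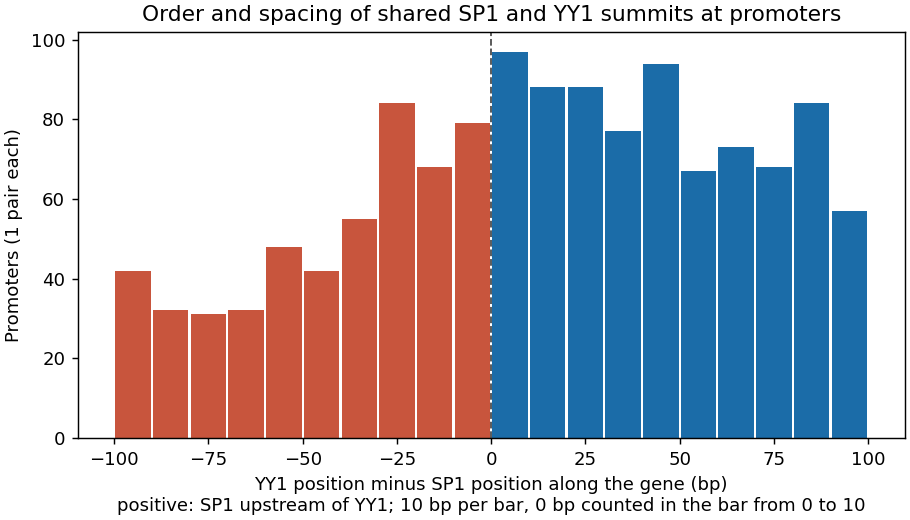
Distance from the SP1 to the YY1 summit along the gene (x axis, bp, 10 bp per bar) in the 1306 promoters with both summits within 100 bp, 1 pair per promoter (y axis, number of promoters). Blue bars have SP1 upstream of YY1 and red bars the reverse; 785 pairs have SP1 upstream and 513 downstream.

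Distal shared summits were closer together than promoter pairs. Over 1146 distal pairs the median unsigned distance was 14 bp, with quartiles at 6 and 33 bp, against 41 bp at promoters. The sets were built differently, since every distal pair was counted but only the closest pair of each promoter. The distal shared positions also overlapped with the list of ZNF143, the factor with the degron. Of the 1145 distal shared SP1 summits, 63.2% (60.4 to 66%) had a ZNF143 summit within 100 bp, against 19% (17.8 to 20.4%) of 3365 unshared distal SP1 and 17.0% (15.3 to 18.8%) of 1758 unshared distal YY1 summits. Over all distal summits of the whole lists the shares were 3.75% for SP1 and 4.01% for YY1. Everywhere in the genome the shares were 71.5% for shared SP1, 26.5% for unshared SP1 and 31.9% for unshared YY1 summits, against 6.90% of all SP1 and 7.73% of all YY1 summits. NRF1 summits showed the same ranking of shared over unshared: 49.9% of shared SP1 summits had one within 100 bp, as did 29.3% of unshared SP1 and 27.9% of unshared YY1 summits, against 10.6% of all SP1 and 11.2% of all YY1 summits. Positions in several of the lists can be bound by several factors or be recovered by any antibody, and these cannot be told apart here, since the mock samples were not analysed. Distal shared SP1 summits had a median GC content of 42.6% in the 101 bases around them. Unshared distal SP1 summits had 43.6% and unshared distal YY1 summits 56.4%. This order rested on what counts as unshared. Distal summits with no summit of the other list at any score within 100 bp had medians of 60.4% for 664 SP1 and 55.4% for 926 YY1 summits.

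The sequences around unshared summits separated the factors. Consensus sequences were searched on both strands within 50 bp of each summit, 11 in all, and their shares were compared between unshared SP1 and unshared YY1 summits by two-sided Fisher exact tests with Benjamini-Hochberg adjustment over the 11. All 11 passed 0.05, that of NRF1 narrowly, at 0.596% of SP1 and 0.893% of YY1 summits (Fisher exact, adjusted p = 0.0496), against 0.277% and 0.185% over the whole lists. With no summit of the other list at any score within 100 bp, the NRF1 order was the reverse, at 1.01% of SP1 and 0.888% of YY1 summits. The GC box was found at 30.0% of SP1 and 22.5% of YY1 summits (odds ratio 1.48, Fisher exact, adjusted p = 5.71e-24), and at 10.0% and 9.61% of all summits in the whole lists. The long GC box, which contains the short one, was found at 9.01% and 1.84% (odds ratio 5.27, Fisher exact, adjusted p = 1.47e-84), against 2.23% and 1.12% over the whole lists. The YY1 consensus was found at 778 YY1 summits (11%) and 5 SP1 summits (0.0709%), an odds ratio of 175 in favour of YY1 (Fisher exact, adjusted p = 9.81e-233), and at 2.52% of all YY1 and 0.386% of all SP1 summits. Leaving out shared summits removed 90 of the 95 top SP1 summits that held it, so the size of this ratio is partly set by the definition. Over all top summits the YY1 consensus was found at 9.49% of YY1 and 0.95% of SP1 summits. Its core ATGGCG, part of the full consensus, was found at 26.1% of YY1 and 2.35% of SP1 summits (Fisher exact, adjusted p below 1e-290), against 7.86% and 2.79% over the whole lists.

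CCAAT boxes marked the SP1 side. They were found at 974 unshared SP1 summits (13.8%) and 133 unshared YY1 summits (1.89%), an odds ratio of 8.34 (Fisher exact, adjusted p = 4.88e-170), against 3.68% and 2.54% over the whole lists. The AP-1 consensus TGANTCA was found at 4.25% of unshared SP1 and 0.837% of unshared YY1 summits (odds ratio 5.27, Fisher exact, adjusted p = 8.55e-41), against 4.84% and 3.37% over the whole lists. In windows 400 bp to either side it was found at 2.17% for the SP1 and 1.72% for the YY1 summits. Of the 300 unshared SP1 summits with the AP-1 consensus, 50 had no YY1 summit at any score within 100 bp. Among summits without such a partner it was found at 1.58% of 3161 SP1 and 0.744% of 4168 YY1 summits. The windows 400 bp away from those summits gave 1.38% and 1.58%. The cyclic AMP response element TGACGTCA was found at 1.56% and 0.539% (odds ratio 2.93, Fisher exact, adjusted p = 2.25e-09), against 0.391% and 0.191%.

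A further 3 sequences were more frequent at unshared YY1 summits. The ETS consensus CCGGAAG was found at 5.88% of YY1 and 3.87% of SP1 summits (Fisher exact, adjusted p = 3.92e-08), against 1.43% and 1.52% over the whole lists. Its order rested on what counts as unshared. With no summit of the other list at any score within 100 bp, it was found at 3.53% of 4168 YY1 and 6.77% of 3161 SP1 summits. At unshared promoter summits the ETS shares were 7.98% for YY1 and 8.48% for SP1. Neither of these 2 contrasts was tested. The CTCF consensus was found at 1.96% of YY1 and 0.808% of SP1 summits (Fisher exact, adjusted p = 6.70e-09), and both shares were under those of the whole lists, 3.78% and 1.98%. The odds ratio of YY1 over SP1 was 2.45, and the difference was not past the threshold with the top 5000 summits of each list (1.27, Fisher exact, adjusted p = 0.259) or with no partner at any score (1.43, Fisher exact, adjusted p = 0.137). The ZNF143 consensus was found at 1.12% and 0.667% (Fisher exact, adjusted p = 0.00586), against 0.463% and 0.414%. With no partner at any score its shares were close, at 0.840% of YY1 and 0.854% of SP1 summits. A match is a run of letters, and binding by the named factor was not measured, apart from the lists.

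Part of these contrasts depended on place. At promoters the GC box was found at 53.6% (51.6 to 55.6%) of unshared SP1 and 26.5% (25.1 to 27.9%) of unshared YY1 summits. Further than 500 bp from gene starts the shares were 17.5% and 17.8%, and the odds ratio was 0.979 (Fisher exact, adjusted p = 0.741). This rested on what counts as unshared. Among summits there with no summit of the other list at any score within 100 bp, 43.2% of 1259 SP1 and 18.4% of 1797 YY1 summits had the GC box. CCAAT boxes stood at 26.2% of unshared SP1 and 1.55% of unshared YY1 promoter summits, and at 5.20% and 2.22% of the distal ones. The AP-1 consensus went the other way in place: it was found at 6.75% of unshared distal SP1 and 1.02% of unshared distal YY1 summits, and at 0.861% and 0.632% at promoters. The CTCF consensus was found at 3.13% of unshared distal YY1 and 0.535% of unshared distal SP1 summits, and at 1.08% and 1.23% at promoters.

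Shared promoter summits lay between the unshared ones for both factors' sequences. The GC box was found at 36.8% of shared SP1 and 30.4% of shared YY1 promoter summits, the CCAAT box at 10.2% and 5.24%, and the YY1 consensus at 4.93% and 9.41%. The ETS consensus instead was highest there, at 14.9% (13.1 to 17%) of shared SP1 promoter summits against 8.48% of unshared SP1 and 7.98% of unshared YY1 promoter summits. As a measure of how common these letters are near starts, the 101 bases up to the start of 15315 RefSeq promoters (GRCh38.p14) held the GC box in 43.7%, the long GC box in 15.4%, the CCAAT box in 10.4%, the ETS consensus in 8.23%, the YY1 core in 3.13%, the AP-1 consensus in 2.00%, the cyclic AMP response element in 1.70%, the CTCF consensus in 1.04% and the YY1 consensus in 0.686%. The NRF1 consensus stood in these 101 bases in 5.24% of the RefSeq promoters, against 1.36% of top SP1 and 1.23% of top YY1 promoter summits. YY1 promoter summits lie mostly downstream of these bases, so windows 400 bp to either side of the summits were counted as well. For the GC box these flanks gave 23.6% at unshared SP1 promoter summits, against 53.6% at the summits, and 20.9% at unshared YY1 promoter summits, against 26.5% at the summits.

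**Figure D4:**
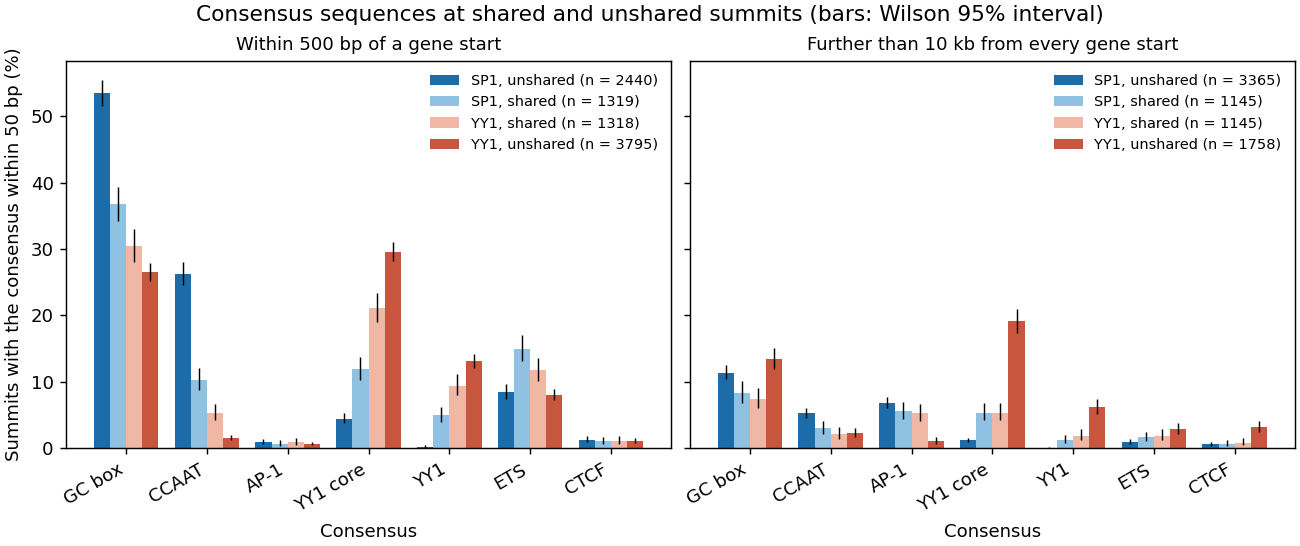
Share of summits with a consensus within 50 bp (y axis, %) at promoters (left) and at distal positions (right), for unshared and shared SP1 summits (dark and light blue) and shared and unshared YY1 summits (light and dark red). Bars are shares with Wilson 95% intervals. At promoters the CCAAT box falls from 26.2% of unshared SP1 to 1.55% of unshared YY1 summits, and the YY1 core is highest at unshared YY1 summits in both panels.

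The factors' own sequences followed rank in opposite ways. The YY1 consensus was found at 43.2% (38.9 to 47.6%) of YY1 ranks 1 to 500 and at 1.88% (1.54 to 2.30%) of ranks 5001 to 10000. The GC box was found at 21.2% (17.8 to 25%) of SP1 ranks 1 to 500 and at 31% (29.8 to 32.3%) of ranks 5001 to 10000. CCAAT boxes were found at 15.4% (12.5 to 18.8%) of SP1 ranks 1 to 500 and 9.54% (8.76 to 10.4%) of ranks 5001 to 10000. Within the first 500, ranks 1 to 100 had CCAAT boxes at 9% (4.81 to 16.2%) and GC boxes at 28% (20.1 to 37.5%). Both intervals overlap with those of ranks 1 to 500, and a difference was not tested.

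The YY1 consensus at promoters ran mostly in the direction of the gene. Near top YY1 summits at promoters stood 627 copies, and 436 (69.5%, 65.8 to 73%) were on the sense strand (exact two-sided binomial test against 50%, p = 5.43e-23). The sense share was 57.5% (49.9 to 64.7%) upstream of the gene start and 78.6% (71.9 to 84.1%) from 25 to 99 bp downstream. Since the consensus contains ATGG, it can coincide with a start of translation: 216 copies (34.4%) had their ATG at an annotated start codon, and 91 of the 173 copies from 25 to 99 bp downstream (52.6%) did. Each copy was counted along the gene whose start is nearest. The copy printed for NDUFA9 is sense in this count, while those printed for UBAP2L and PLOD3 lie nearer to the starts of C1orf43 and ZNHIT1 and were counted as antisense and sense along those genes.

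The direction was also present in copies without YY1 among its strongest summits. Of all 1403 copies of the consensus within 500 bp of protein-coding gene starts, 66.5% (64 to 68.9%) were sense, and of the 731 without a top YY1 summit within 50 bp, 62.8% (59.2 to 66.2%) were sense. Top YY1 summits lay near a large part of all copies: 672 of the 1403 (47.9%, 45.3 to 50.5%) had a top YY1 summit within 50 bp, and with summits of any score 50.8% did. The share with a top summit was 50.8% (47.6 to 54%) for sense copies and 42.1% (37.7 to 46.6%) for antisense copies. Among sense copies it was 55.2% (50.2 to 60%) at start codons and 47.7% (43.5 to 51.9%) elsewhere. These differences were not tested.

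By genes, 2891 of 19970 protein-coding genes (14.5%) had top summits of both factors within 500 bp of their start, 1375 (6.89%) of SP1 only, 2583 (12.9%) of YY1 only and 13121 (65.7%) of neither. Genes with a top summit of one factor and no summit of the other at any score were few, 83 for SP1 and 82 for YY1. The counts of gene groups below are to be read against these shares.

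Cholesterol synthesis was the group with the largest SP1-only share among the 19 groups examined. Of 20 genes, 11 (55%, 34.2 to 74.2%) had a top SP1 summit only, 6 had both, 1 had YY1 only and 2 had neither. At MSMO1, a sterol demethylase, the SP1 score was 3683 (rank 232, -134 bp from the start). At HMGCS1, which makes HMG-CoA for the mevalonate pathway, it was 2832 (rank 414, -217 bp), with the CCAAT box printed above. At IDI1, the isomerase of isopentenyl diphosphate, it was 1977 (rank 813, 75 bp downstream). All 20 had a YY1 summit of some score within 500 bp, so that SP1 only refers to the top of the lists.

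Genes of the respiratory chain and ATP synthase stood on the YY1 side. Of 88 genes, 40 (45.5%, 35.5 to 55.8%) had a top YY1 summit only, 21 had both, 3 had SP1 only and 24 had neither. Of the 38 complex I genes 23 (60.5%) were YY1 only, and so were 8 of 19 ATP synthase genes and 3 of 4 complex II genes. Complex IV differed from them in its counts, with 3 of 17 genes YY1 only and 10 with neither. The highest YY1 scores were 8376 at NDUFA13 (rank 120, 458 bp downstream), 5042 at ATP5MF (rank 273, -43 bp) and 4308 at NDUFA9 (rank 348, 30 bp downstream). NDUFA13 and NDUFA9 are complex I subunits and ATP5MF is a subunit of ATP synthase.

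In other housekeeping groups most genes with a top summit had both factors or YY1 only. Their SP1-only shares ran from 1.82% to 11.1%, around the 6.89% of all genes. The 78 mitochondrial ribosomal proteins split into 33 with both, 32 with YY1 only, 2 with SP1 only and 11 with neither, and the 49 spliceosome proteins into 22, 20, 1 and 6. The 86 cytosolic ribosomal proteins had 48 with both, 19 with YY1 only, 5 with SP1 only and 14 with neither. The 55 translation initiation factors had 23, 16, 1 and 15, the 48 proteasome subunits 16, 14, 3 and 15, and the 36 aminoacyl-tRNA synthetases 14, 11, 4 and 7. Examples with both were MRPS15 of the mitochondrial small subunit, where the SP1 score of 1030 stood at -24 bp and the YY1 score of 8485 at 39 bp, and PSMC3, a proteasome ATPase, with 1643 at 31 bp and 4433 at 174 bp. RPL32, a protein of the large ribosomal subunit, had an SP1 summit at -123 bp and a YY1 summit at 79 bp. In each of these 3 genes SP1 was upstream of YY1.

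The 69 replication-dependent histone genes, which lack the usual polyadenylation signal, had no member with only 1 of the factors: 46 (66.7%, 54.9 to 76.6%) had both and 23 had neither. Neighbouring histone genes share summits, as the divergent H2AC6 and H2BC4 do, where the same SP1 summit (score 2425) and the same YY1 summit (1211) counted for both. At H4C4 the SP1 score was 2585 at -42 bp and the YY1 score 778 at 47 bp.

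Genes of cell division had similar numbers on either side. The 43 DNA replication genes had 18 with both, 8 with YY1 only, 5 with SP1 only and 12 with neither, and the 76 kinetochore and mitosis genes 18, 12, 12 and 34. CDC45, a subunit of the replicative helicase, held the YY1 summit of rank 3 (score 30141, 83 bp downstream), with an SP1 summit of rank 664 at -9 bp. RPA2, a single-strand binding protein, had a YY1 score of 8648 at 25 bp and an SP1 score of 1062 at -55 bp.

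Zinc finger genes with a ZNF number were more often YY1 only. Of 508, 133 (26.2%, 22.5 to 30.2%) had YY1 only, 95 both, 24 SP1 only and 256 neither. On chromosome 19, where many of them lie in clusters, 60 of 246 were YY1 only, and elsewhere 73 of 262. The highest were ZNF484 (score 10680, rank 71, -89 bp), ZNF175 (10572, rank 74, -144 bp) and ZNF649 (9165, rank 99, -28 bp).

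Groups of developmental or tissue-restricted genes were mostly without top summits. All 400 olfactory receptors and all 17 imprinted genes had neither, as did 51 of 53 clustered protocadherins and 42 of 44 collagen genes. The exceptions had YY1 only: PCDHB7, with a YY1 score of 183 and the antisense consensus copy shown above, PCDHGA11 with 205, and COL4A5 and COL4A6, which share 1 summit of score 164 between their divergent starts. Of 79 SOX, FOX, PAX and GATA factors 64 had neither, 7 both, 5 SP1 only and 3 YY1 only. The 39 HOX genes, which pattern the body axis, departed from this with 14 genes having both, 4 SP1 only, 1 YY1 only and 20 neither. At HOXA5 the SP1 score was 1549 at -128 bp and the YY1 score 254 at -241 bp. The 337 solute carriers had 30 with SP1 only, 24 with both, 23 with YY1 only and 260 with neither. SLC25A39 and SLC25A42, mitochondrial carriers, had SP1 scores of 1836 and 1827, and SLC26A6, an anion exchanger, had 1498.

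**Figure D5:**
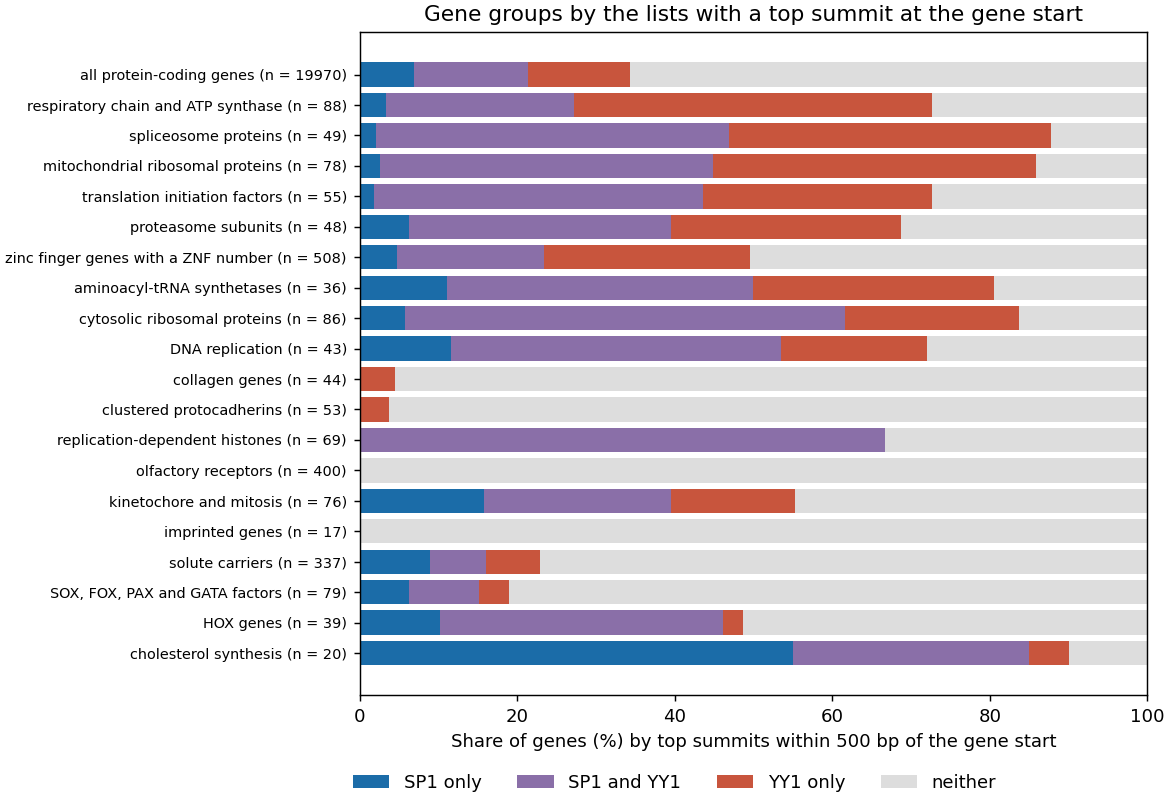
Share of genes (x axis, %) with a top summit of SP1 only, of both factors, of YY1 only or of neither within 500 bp of the gene start, for 19 gene groups and all 19970 protein-coding genes (y axis, with the number of genes). Cholesterol synthesis has the largest SP1-only share (55%) and the respiratory chain and ATP synthase the largest YY1-only share (45.5%).

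The highest-ranking promoters shared within 100 bp included 3 on chromosome 16. In an intron of ZNF689, at the start of ENSG00000289491, the SP1 score was 11302 (rank 9) and the YY1 score 18444 (rank 15), 19 bp apart. At PRR14 the SP1 score was 7105 (rank 30) and the YY1 score 24888 (rank 7), with YY1 30 bp upstream. CYLD, a deubiquitinase, had 3178 (rank 319) and 6963 (rank 152), 13 bp apart. Others were NCDN, with 4432 (rank 143) and 13597 (rank 39), and SIRT2, a deacetylase, with 3240 (rank 308) and 6485 (rank 176). YY1 was upstream of SP1 at PRR14, NCDN and CYLD, and downstream at SIRT2 and ENSG00000289491. The megabase from 30 to 31 Mb of chromosome 16 held 40 top SP1 and 43 top YY1 summits.

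Promoters with a top SP1 summit and no YY1 summit of any score included AAGAB (SP1 score 3280, rank 296, in an intron at 459 bp), RAD51AP2 (2352, rank 589, -70 bp), ZBTB7B (2104, rank 726, -413 bp) and FAM117A (1699, rank 1085, -13 bp). A GC box lay within 50 bp of the summit in all 4. The summit at BOLA2, BOLA2-SMG1P6 and SLX1B (3510, rank 260) also had one, but its 31 bases occur 2 times in hg38, and reads there may come from either copy.

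Of the 8 highest promoters with a top YY1 summit and no SP1 summit of any score, 7 had it more than 300 bp downstream of the start, and SCAF8 had it nearer. The YY1 score was 6618 (rank 169) at ENSG00000268614, in a UTR shared with PNPLA6, 489 bp downstream. It was 3332 at SCAF8 (87 bp downstream), 3284 at GGA3 (468 bp), 2875 at PLOD3 (422 bp), 2518 at UBAP2L (361 bp), 2378 at RPL3 (476 bp), 2203 at GART (325 bp) and 1778 at ENSG00000290184 (390 bp). PLOD3 is a collagen-modifying enzyme, RPL3 a ribosomal protein and GART an enzyme of purine synthesis. At this distance the 500 bp window leaves little room downstream of the YY1 summit for an SP1 summit to be counted. Some of these summits also lay at neighbouring genes. The consensus copies at the PLOD3 and UBAP2L summits were nearest to the starts of ZNHIT1 (-129 bp) and C1orf43 (77 bp). The GGA3 summit lay in a UTR annotated for GGA3 and MRPS7, and the GART summit in coding sequence annotated for GART and SON. Whether either bears on the lack of an SP1 summit was not tested. The full YY1 consensus was found within 50 bp of the summit in PLOD3, UBAP2L and ENSG00000290184.

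The genes of the factors themselves differed. The SP1 gene had an SP1 summit of score 5220 (rank 95) at -347 bp and no top YY1 summit. The YY1 gene had an SP1 summit of score 346 (rank 8769) 444 bp downstream and a YY1 summit of score 321 (rank 4922) at -226 bp.

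Of the distal positions, the highest unshared SP1 summit, at chrX:115732513, had a score of 11326 (rank 8) and lay between genes, and another at chrX:115888292 had 6739 (rank 37). The 31 bases around each occur 18 times in hg38, so they lie in repeated sequence, and the megabase that holds them had 27 top SP1 and 7 top YY1 summits. The third, at chr19:4328537 in an intron of STAP2, had 7424 (rank 27) with a GC box and a CCAAT box nearby, in sequence present 1 time. The highest unshared distal YY1 summits were in introns of CHD2 (10442, rank 78) and NR3C1 (10308, rank 81), and 10269 bp upstream of ZNF689 (9825, rank 87), the last with the full YY1 consensus. An SP1 summit below the top 10000 lay 15 bp from the CHD2 summit, and the NR3C1 and ZNF689 summits had SP1 summits 101 and 129 bp away, just beyond the limit for sharing. Among the 3 highest shared distal sites were those in introns of TMEM94 (SP1 4939, YY1 4294, 47 bp apart) and PCDH9 (SP1 11336, YY1 2005, 58 bp apart).

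Top summits were not spread evenly. In the SP1 list 31 stretches of 1 Mb held 20 or more top summits each, with 816 summits (8.16%) in all, and in the YY1 list 26 stretches held 715 (7.15%). Without the 44 stretches that reached this number in either list, the shared share was 28.6% of SP1 and 28.6% of YY1 summits, SP1 was upstream of YY1 in 60.5% of promoter pairs and the odds ratio of the YY1 consensus was 197.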

How the data were processed

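ChIP-seq samples of 1 HEK293T clone were assigned to groups by their titles. The authors deposited lists of peak summits in which, from the values and layout, column 5 is a −log10 significance (a p-value or a q-value, which is not stated). The submitters' processing notes name cutadapt, Bowtie2, SAMtools 1.16.1, MACS3, bedtools and hg38. Their roles, the filters and the YY1 samples pooled are not given in the sources used here. The members and gene lists were chosen with earlier results of these data known.

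Summits were ranked by score, ties in file order. Distances, merged promoter windows (GENCODE 44), exact consensus matches in hg38, Wilson 95% intervals, exact binomial and Fisher exact tests were computed with Python 3.11.15, pandas 2.3.3, SciPy 1.17.1 and pysam 0.24.0, and tested on simulated data. Offsets refer to the nearest protein-coding gene start, and genes were classed by their own window. A gene list is a set of gene names. Named genes were the 6 best-ranked shared promoters (by the worse rank), the 8 highest with no summit of the other list, 3 distal sites per class, both factors' genes, and up to 3 genes per list from its commonest class with a top summit. Alternatives changed the distances, list lengths, windows and gene starts. Some of the genes this rule selects are not reported here.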

Additional observations from a re-analysis of the deposited data

How the results depend on the processing

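The shared share depended on the settings by construction. It was 21.35% of SP1 and 21.35% of YY1 summits within 50 bp, 42.32% and 43.34% within 250 bp, 17.1% and 17.12% with the top 5000 of each list, 38.835% and 38.815% with the top 20000, and 32.3% for both with only the highest summit of each peak. SP1-only genes numbered 83 and YY1-only genes 82 when the other list was read at any score, and YY1-only genes numbered 1592 with the top 20000. The promoter odds ratio reversed to 1.14 (Fisher exact p = 0.00477) when unshared meant no partner at any score. The GC box odds ratio was 0.979 (0.870 to 1.10, Fisher exact, adjusted p = 0.741) for unshared summits outside promoters, without a difference past the threshold. It was 3.31 (Fisher exact, adjusted p = 3.41e-126) everywhere when unshared meant no partner at any score. The CTCF odds ratio of YY1 over SP1 was 0.877 (Fisher exact, adjusted p = 0.625) at promoters, 1.27 (adjusted p = 0.259) with the top 5000 and 1.43 (adjusted p = 0.137) with no partner at any score; the cause was not tested. SP1 was upstream of YY1 in 57.5 to 64.1% of pairs and the YY1 consensus was sense in 66.3 to 70.3% under the alternatives run, all past the threshold. The alternative without dense 1-Mb stretches was added after seeing the data. No paired analysis was possible because the lists hold no value per sample, and for the same reason no replicate could be left out. Depth is unknown.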

Other observations

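Genes of RNA polymerase III gave values outside the comparisons of protein-coding genes; they were examined after their values had been seen. Of 443 RefSeq tRNA genes, 79 (17.8%) had a top YY1 summit within 200 bp of their middle and 8 (1.81%) a top SP1 summit, while summits of any score stood at 241 (YY1) and 280 (SP1). The highest was a YY1 summit 119 bp from the middle of the serine tRNA gene TRS-GCT4-2 (score 6038, rank 199). The same summit lay near a YY1 consensus copy at -38 bp from the start of the protein-coding gene KNL1, so it may belong to that promoter. The next was 44 bp from the middle of TRS-CGA3-1 (score 1444, rank 1312). All 17 genes for 5S rRNA had a top YY1 summit and 0 had a top SP1 summit, with summits of any score at 17 (YY1) and 15 (SP1). The other lists reached these genes too. NRF1 summits of any score stood at 11 of the 5S and 138 of the tRNA genes, and ZNF143 summits at 8 and 105. Recovery by any antibody cannot be told apart from binding here either. The 5S genes are near-identical copies in a cluster on chromosome 1, so their reads cannot be assigned to single copies with certainty and the 17 are not independent.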
